A study of Saccharomyces cerevisiae with 27 samples.

Results

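The comparison described here set late replicative life of the budding yeast Saccharomyces cerevisiae against the middle of it, over the 7 arrays titled 18-20 generation and the 7 titled 12 generation, 14 of the 27 arrays of the series. A generation is 1 daughter budded off, so replicative age counts the daughters a mother cell has produced. Every array was a 2-colour spotted array that set RNA of aged cells against RNA of 1-generation control cells, young cells that, by the labels, were matched to the aged sample in conditions. All groups, controls included, were wild type in the W303 background, and the wording of the series description leaves the mating type open. By the labels' protocols, the cells had been sorted with magnetic beads and held in log phase, and the RNA was amplified before dyes were coupled to it. On 3 of the 7 arrays of each age the dyes ran the other way. All ratios were oriented as aged over young, and the quantity compared is the mean log2(aged/young) at 18-20 generations minus that at 12 generations. It answers which departures from young cells deepened, levelled off or turned back late in life.

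Old mother cells are rare in a culture, because every division adds a new daughter, so they have to be enriched by sorting. Ageing mothers are known for fewer transcripts of ribosome production and more transcripts of energy reserves, stress protection and respiration, the pattern that growing yeast also shows when glucose runs low. Ribosome production takes a large share of the transcription of a growing yeast cell, and the genes for it are regulated as one block. Trehalose and glycogen are the storage carbohydrates of yeast, laid down when growth slows. In RNA from whole populations, fewer cells of a type and less RNA per cell cannot be told apart, and neither can a change in every cell and a larger share of changed cells.

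The arrays of each age were not alike, and some resembled each other far more than others (correlations of log2(aged/young) across genes, which are not independent replicates). Within 12 generations the pairs of arrays correlated at r = 0.228 to 0.919 and within 18-20 generations at 0.630 to 0.965. At 18-20 generations, arrays 1 to 4 correlated at 0.930 to 0.965 among themselves and at 0.630 to 0.728 with arrays 5 to 7. Array 1 of 12 generations correlated at 0.853 to 0.878 with arrays 1 to 4 of 18-20 generations and at 0.228 to 0.725 with the other arrays of its own age. Arrays 2 and 3 of 12 generations correlated at 0.228 to 0.448 with the other 12 arrays. Neighbouring arrays of opposite dye (2 with 3, 4 with 5 and 6 with 7 at 12 generations, 1 with 2, 3 with 4 and 5 with 6 at 18-20) correlated at 0.803 to 0.965.

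**Figure D1:**
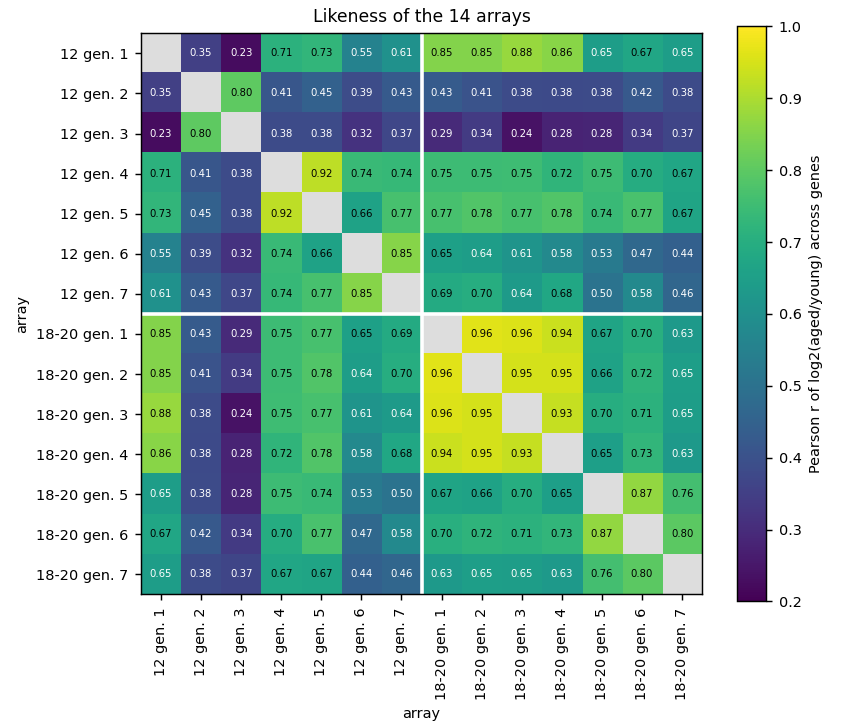
Pearson r of log2(aged/young) across genes for every pair of the 14 arrays, with the 12-generation arrays above and left of the white lines. Arrays 1 to 4 of 18-20 generations form the brightest block (0.93 and above), array 1 of 12 generations reads 0.853 to 0.878 against them, below that block, and arrays 2 and 3 of 12 generations are dark against all but each other.

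The spot positions in the files bear on these neighbours. In each of the 6 pairs the spots of 1 array lay between 4580 and 22460 on the vertical image scale and those of the other between 29540 and 47430, with a horizontal shift of 40 to 80 and a vertical shift of 24860 to 24950 (the unit is not given in the files). Of the other 43 pairs with 1 array in each area, 3 had shifts in those ranges. The files name no slides, and the labels do not say whether neighbours shared a slide or RNA, or whether the arrays of an age came from separate cultures. P-values therefore measure the spread between these arrays, part of which may be technical. The count of differences is given with 14 independent arrays and with the neighbours treated as related.

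Log ratios to young cells spread wider at 18-20 generations than at 12 over these arrays. Within an array, the SD of log2 ratios over genes was 0.790 ± 0.137 (SD, n = 7) at 12 generations and 1.07 ± 0.126 (SD, n = 7) at 18-20 generations, larger than the spread between arrays (exact permutation test, two-sided, p = 0.002331 over 3432 splits). With opposite-dye neighbours averaged, leaving 4 values at each age, it was 0.815 ± 0.154 against 1.10 ± 0.149 (exact permutation test, p = 0.05714). The SD within an array also holds measurement noise. Of 6019 genes tested with limma at a Benjamini-Hochberg adjusted p of 0.05, 2282 differed from young cells at 12 generations and 3557 at 18-20 generations. Both ages called 2005 genes, 1994 with the same sign and 11 with opposite signs. The genes that differed from young cells numbered 2138 at 12 and 2282 at 18-20 generations without arrays 1 to 4 of 18-20, which left fewer arrays of that age. With every array scaled to the same spread they numbered 2708 and 3071.

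The difference between the ages itself passed for 535 genes, 8.89% of those tested, 199 higher (3.31%) and 336 lower (5.58%) at 18-20 generations, and 1616 genes had an unadjusted p under 0.05. Among the genes that passed, 285 differed over 2-fold, 71 higher and 214 lower. The 7 arrays of one age lay wholly above or below the 7 of the other for 161 genes (2.67%), 59 above and 102 below. The median difference over all genes was -0.02. The normalization centres each array near 0, so this value cannot show whether all transcripts shifted together. These calls rest on the independence of neighbouring arrays. With the neighbours as a random block (consensus correlation 0.789) the difference passed for 1 gene, PGM2, with 790 genes at an unadjusted p under 0.05, and with the neighbours averaged it passed for 0 genes in limma (676 unadjusted, lowest adjusted p = 0.236). With every array scaled to the same spread of log ratios, a setting that removes any uniform deepening, 43 genes passed, 15 higher and 28 lower, and the difference kept its sign for 533 of the 535. In what follows "rose" and "fell" between the ages mean that the difference passed with 14 independent arrays, and with the neighbours as a block such a call remains for PGM2 alone. Of the genes named, PGM2, TFS1, DCS2, YGP1, PRX1, PRY1, NNR1, SDH2, YAP1, TRM11, RPS4B, RPS29B, RPS31, RPL43B, RPL37A, PDC1, LOC1, NOP58, BTN2 and PIN2 also passed with scaled arrays.

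Sorting genes by both ages gave patterns of unequal size. Of the genes that differed from young cells at 12 generations, 62 rises and 185 falls deepened, meaning that they passed at 12 generations and moved further the same way by 18-20. A further 120 genes rose late and 135 fell late, passing at 18-20 generations and in the difference but not at 12. Level genes, called at both ages in one direction, with no called difference and its 95% confidence interval within ±0.5 on the log2 scale, numbered 108 rises and 102 falls. Those that turned back were fewer, 16 rises and 16 falls of 12 generations that moved the other way. The other 1004 rises and 789 falls of 12 generations had no called difference and did not meet the definition of level. The 12-generation arrays enter both sides of this sorting, so the counts are a description. Without array 1 of 12 generations the difference passed for 1072 genes and without array 2 of 18-20 generations for 302.

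**Figure D2:**
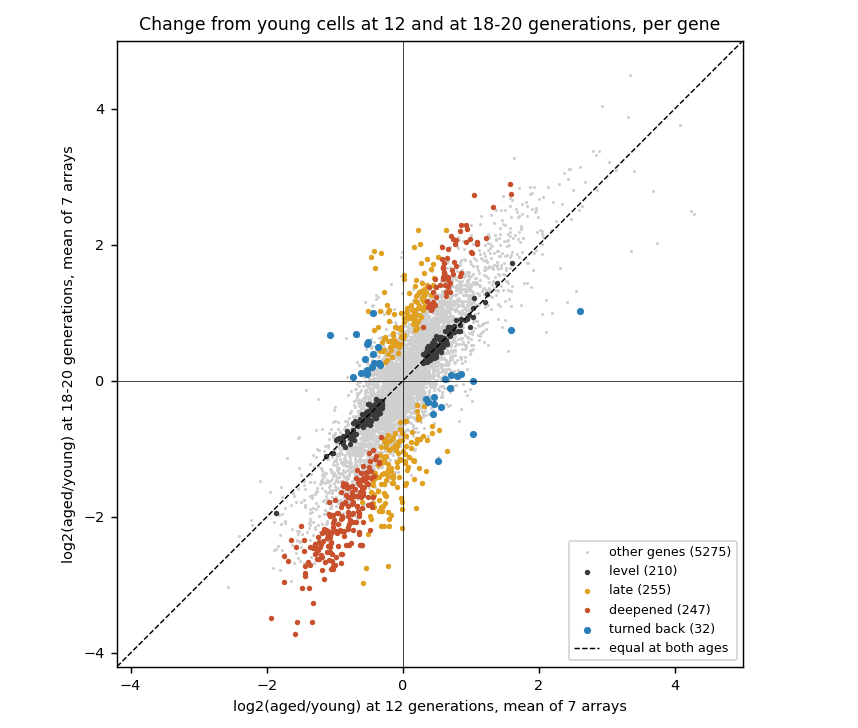
Mean log2(aged/young) of each tested gene at 12 generations (horizontal) and at 18-20 generations (vertical), coloured by pattern, with the dashed line marking equal change at both ages. Deepened falls form a band at the lower left well below the line, late genes lie near 0 on the horizontal axis, and the few genes that turned back lie on the far side of the line or past 0.

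Reserve carbohydrate genes carried the largest late rises. Of 18 trehalose and glycogen genes tested, 10 rose between the ages, against 3.31% of all genes, none was lower even at an unadjusted p under 0.05, and all 18 had a difference above 0. Their median log2(aged/young) was 0.47 at 12 generations and 1.5 at 18-20, with a median difference of 1.08. Higher than in young cells were 8 at 12 generations (background 19.8%) and 17 at 18-20 generations (background 30.6%). Of the 10, 7 came late and 3 deepened. The rises numbered 4 without arrays 2 and 3 of 12 generations, 5 without arrays 1 to 4 of 18-20 and 2 with scaled arrays. PGM2, the major phosphoglucomutase, which interconverts glucose 1-phosphate and glucose 6-phosphate, read from -0.95 to 0.65 with a median of -0.64 on the arrays of 12 generations and from 1.35 to 2.61 with a median of 1.68 on those of 18-20. No array of one age reached the range of the other, and array 1 was the highest of the 12-generation arrays. The difference was 2.19 ± 0.284 (SE), 4.57-fold (adjusted p = 0.00247), the largest rise of any gene that had its own probe, measured on at least 6 arrays of each age.

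GPH1, glycogen phosphorylase, which releases glucose from glycogen, read from -0.60 to 1.48 (median 0.35) at 12 generations and from 1.19 to 3.94 (median 1.45) at 18-20. The ages overlapped at 1.19 to 1.48, where array 1 of 12 generations lay among arrays 1 to 4 of 18-20, while arrays 5 to 7 read 2.20 and above. It rose by 1.75 ± 0.413 (SE), 3.37-fold (adjusted p = 0.0164), 2.67 against arrays 5 to 7 alone and 1.04 against arrays 1 to 4 alone. TSL1, a regulatory subunit of the trehalose synthase complex, read from -1.04 to 0.59 (median -0.38) at 12 generations and from 0.56 to 2.33 (median 1.24) at 18-20, so that the ages overlapped slightly at array 1 of each, and rose 2.98-fold (adjusted p = 0.00963). GSY2, the main glycogen synthase, read from -0.42 to 2.05 (median 0.44) and from 1.51 to 3.20 (median 2.16), with arrays 1 and 4 of 12 generations inside the later range, and rose 2.99-fold (adjusted p = 0.021). Genes of glycogen synthesis and of its breakdown rose side by side.

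Genes of general stress protection rose less evenly. Of 38 tested, 12 rose between the ages (31.6%, against 3.31% of all genes, with 19 higher and none lower at an unadjusted p under 0.05). The median log2(aged/young) went from 0.72 to 1.81, and both this list and that of reserve carbohydrates hold TPS1, TSL1 and GSY2. The median difference was 0.721, and it was 0.347 with 7 rises without arrays 2 and 3 of 12 generations and 0.315 with 5 rises with scaled arrays. At 12 generations 21 of the 38 were already above young cells (background 19.8%), and at 18-20 generations 35 (background 30.6%). TFS1, an inhibitor of carboxypeptidase Y, read from -0.96 to 1.11 (median 0.50) at 12 generations and from 1.85 to 2.80 (median 2.04) at 18-20, with no overlap, and rose 4.00-fold (difference 2.00 ± 0.303 SE, adjusted p = 0.00247). DCS2, a stress-induced inhibitor of the scavenger decapping enzyme, read from -0.65 to 0.89 (median -0.05) and from 1.36 to 3.87 (median 1.69). Its ages did not overlap and it rose 3.51-fold (adjusted p = 0.00889), with array 7 of 18-20 generations far above the rest. On array 7 the median of the 38 genes was 2.49, and on the other 18-20-generation arrays at most 1.72.

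Of 30 antioxidant genes tested, 4 rose (13.3%, against 3.31% of all genes) and 1 fell (3.33%, against 5.58%). PRX1, the mitochondrial peroxiredoxin, read from -0.45 to 0.74 (median 0.08) at 12 generations and from 1.05 to 2.49 (median 1.32) at 18-20, without overlap, and rose 2.78-fold (difference 1.48 ± 0.251 SE, adjusted p = 0.00439). YAP1, the transcription factor of the oxidative stress response, rose 2.00-fold from 0.38 to 1.38 (adjusted p = 0.0058) and its ages did not overlap. TSA2, a cytoplasmic peroxiredoxin, rose 2.23-fold (adjusted p = 0.021) and CCP1, mitochondrial cytochrome c peroxidase, 1.87-fold (adjusted p = 0.0342). The group median differed by 0.24, and by -0.14 with 2 rises without arrays 1 to 4 of 18-20 generations.

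**Figure D3:**
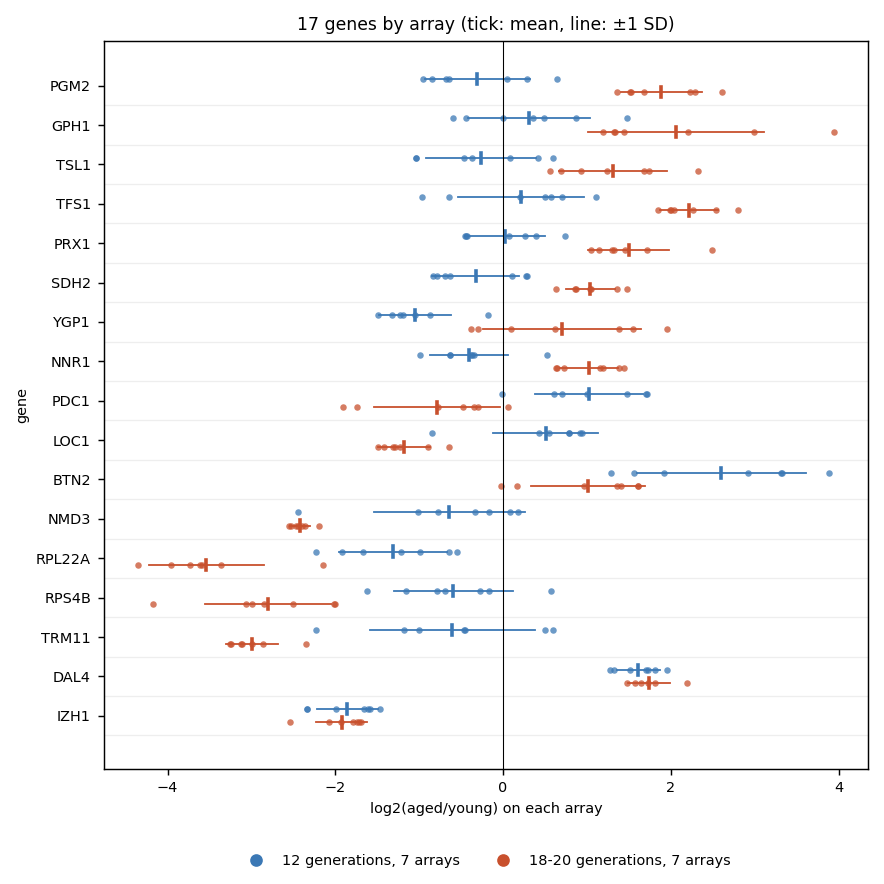
log2(aged/young) of 17 genes on each of the 7 arrays of 12 generations (blue) and of 18-20 generations (red), with ticks at the means and lines of 1 SD to each side. PGM2, TFS1, PRX1 and SDH2 have no overlap between the ages, DAL4 and IZH1 lie at the same place at both, and in NMD3 and LOC1 a single blue point, array 1, lies by the red ones.

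Protein turnover genes moved up in small steps. Of 35 proteasome genes, 4 rose (14 higher and none lower at an unadjusted p under 0.05), with a median log2(aged/young) of 0.35 at 12 generations and 0.74 at 18-20. The rises were 11.4% of the group, against 3.31% of all genes. Among them, 15 were above young cells at 12 generations (background 19.8%) and 30 at 18-20 (background 30.6%). The rises numbered 2 without arrays 2 and 3 of 12 generations, 1 without arrays 1 to 4 of 18-20 and 0 with scaled arrays in limma (5 higher unadjusted). UMP1, the chaperone of proteasome assembly, rose 2.07-fold (from 0.21 to 1.26, adjusted p = 0.0065), and PRE8, a subunit of the core particle, rose 1.62-fold (from -0.11 to 0.58, adjusted p = 0.0195), both without overlap between the ages. RPN1 and RPN12, subunits of the regulatory particle, rose 1.64-fold (adjusted p = 0.0239) and 1.55-fold (adjusted p = 0.0344). Of 31 genes of autophagy and vacuolar proteases, 3 rose (9.68%, against 3.31% of all genes, with 14 higher and 1 lower unadjusted). ATG19, a cargo receptor of selective autophagy, rose 2.43-fold without overlap (adjusted p = 0.00977), ATG9, a membrane protein of autophagosome formation, 1.91-fold (adjusted p = 0.014), and VPS30, a subunit of the phosphatidylinositol 3-kinase complexes, 1.73-fold (adjusted p = 0.0251).

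A few respiratory genes rose. Of 41 genes of the respiratory chain and ATP synthase, 3 rose (7.32%, against 3.31% of all genes, with 9 higher and 1 lower unadjusted), with medians of 0.14 and 0.50. Above young cells were 7 at 12 generations (background 19.8%) and 21 at 18-20 (background 30.6%). The count of rises between the ages depended on the arrays. Without arrays 1 to 4 of 18-20 generations 0 rose and 2 fell in limma (6 higher and 4 lower unadjusted), and without arrays 2 and 3 of 12 generations, whose group medians were -0.574 and -0.611, 1 rose and the median difference went from 0.395 to 0.107. Of 15 genes of the tricarboxylic acid cycle, 3 rose (20.0%, against 3.31% of all genes, with 8 higher and none lower unadjusted). The group medians were 0.45 and 1.03, and 0 of the genes rose in limma without arrays 1 to 4 of 18-20 (4 higher unadjusted). SDH2, the iron-sulfur subunit of succinate dehydrogenase, which belongs to both lists, read from -0.83 to 0.28 (median -0.63) at 12 generations and from 0.64 to 1.47 (median 1.04) at 18-20. The ages did not overlap, 4 of the 7 arrays of 12 generations read below -0.6, and it rose 2.58-fold (difference 1.37 ± 0.231 SE, adjusted p = 0.00375). SDH4, a membrane anchor subunit of the same enzyme, rose 2.08-fold (adjusted p = 0.033), and KGD2, a subunit of alpha-ketoglutarate dehydrogenase, 1.82-fold (adjusted p = 0.00822). COX5A, the subunit of cytochrome c oxidase used in the presence of oxygen, differed between the ages (2.01-fold, adjusted p = 0.0484) while passing against young cells at neither (-0.54 and 0.47), the one gene of that kind among those tested.

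Genes of growth on poor carbon sources were already high at 12 generations and, over all 14 arrays, moved little more. Of 25 genes of the glyoxylate cycle and gluconeogenesis, 19 were above young cells at 12 generations (background 19.8%) and 21 at 18-20 (background 30.6%). The group medians were 1.53 and 1.87, and 1 gene rose between the ages (4.00%, near the 3.31% of all genes). That gene was ADR1, an activator of genes for ethanol and fatty acid use, 1.76-fold (adjusted p = 0.0202). The 18-20-generation arrays split over this group. The median difference was 0.96 against arrays 1 to 4 and -0.60 against arrays 5 to 7, -0.07 with scaled arrays and -0.02 without arrays 2 and 3 of 12 generations. Peroxisomal fatty acid oxidation did the same (20 genes, medians 1.28 and 1.71, differences of 0.70 and -0.37 against those arrays). It held 1 rise (5.00%, against 3.31% of all genes), FAA1, a long-chain fatty acyl-CoA synthetase (1.80-fold, adjusted p = 0.0281). Of 20 stationary phase genes, 15 were above young cells at 12 generations and 17 at 18-20, beside the same backgrounds. Their medians were 1.63 and 1.97, and 1 rose (5.00%, against 3.31% of all genes). The retrograde response, which signals mitochondrial state to the nucleus, had 13 genes with medians of 0.78 and 0.64, and 0 passed in the difference by limma (1 higher unadjusted). The group of glucose uptake genes had 1 rise in 14 (7.14%, against 3.31% of all genes), RGT1, a glucose-responsive repressor of hexose transporter genes (1.60-fold, adjusted p = 0.0287).

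Within glycolysis and fermentation, genes moved both ways. Of 17 tested, 2 rose and 3 fell (11.76% and 17.65%, against 3.31% and 5.58% of all genes), and the medians were 0.32 and -0.03. With scaled arrays 0 rose and 1 fell in limma (2 higher and 6 lower unadjusted). Without arrays 2 and 3 of 12 generations 1 rose and 1 fell. Leaving out arrays 1 to 4 of 18-20 generations gave 2 rises and 3 falls, and leaving out arrays 5 to 7 gave 1 and 6. GLK1, glucokinase, read from -0.69 to 0.63 (median 0.08) at 12 generations and from 0.89 to 2.34 (median 1.48) at 18-20, with no overlap, and rose 2.91-fold (difference 1.54 ± 0.272 SE, adjusted p = 0.00491). HXK1, the hexokinase of cells on poor carbon sources, rose 2.49-fold from 1.58 to 2.90 (adjusted p = 0.0386), and passed in 4 of 14 fits with 1 array left out. PDC1, the major pyruvate decarboxylase, which commits pyruvate to ethanol, went the other way. It read from -0.01 to 1.72 (median 1.00) at 12 generations and from -1.90 to 0.06 (median -0.47) at 18-20. Array 1 of 12 generations was the one array of its age below the highest of 18-20, array 7. PDC1 fell 3.51-fold (difference -1.81 ± 0.347 SE, adjusted p = 0.00732), from above young cells to below them. PDC5, a minor isoform, fell 2.14-fold (adjusted p = 0.0394). These isoforms are close in sequence and the probes may share target.

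Ribosomal protein genes carried most of the largest falls. Of 56 genes of the large subunit tested, 27 fell between the ages, against 5.58% of all genes (48 lower and none higher at an unadjusted p under 0.05), with a median log2(aged/young) of -0.85 at 12 generations, -1.96 at 18-20 and a median difference of -1.12. Below young cells were 38 at 12 generations (background 18.1%) and 55 at 18-20 (background 28.5%). Of 44 genes of the small subunit, 22 fell (32 lower and none higher unadjusted), all 44 had a difference below 0, and the medians were -0.91 and -2.17. Without arrays 2 and 3 of 12 generations 18 of each subunit fell, without arrays 1 to 4 of 18-20 generations 10 and 8, and with scaled arrays 4 and 4. Among the falls, 18 of the large and 12 of the small subunit deepened, while 9 and 10 came late. The medians of single arrays ran from -1.47 to -0.15 at 12 generations for the large subunit and from -2.44 to -1.18 at 18-20, so the ages overlapped through array 1 of 12 generations and array 7 of 18-20. For the small subunit array 7 stood apart at -1.12, with the other 18-20-generation arrays at -2.03 or lower.

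RPL22A, a protein of the large subunit, read from -2.23 to -0.55 (median -1.22) at 12 generations and from -4.35 to -2.15 (median -3.62) at 18-20. Array 7 was the one 18-20-generation array above the lowest of 12 generations, array 1. It deepened 4.66-fold (difference -2.22 ± 0.331 SE, adjusted p = 0.00247). RPS4B of the small subunit read from -1.62 to 0.57 (median -0.69) and from -4.18 to -2.0 (median -2.85), without overlap, and fell 4.63-fold (difference -2.21 ± 0.324 SE, adjusted p = 0.00247). RPS31, whose protein is made as a fusion with ubiquitin, read from -1.04 to 0.87 (median 0.28) and from -3.73 to -1.19 (median -1.75). It was at or above young cells on 5 of 7 arrays at 12 generations and below them on all 7 at 18-20, and fell 4.21-fold (adjusted p = 0.00375). RPS29B fell 4.43-fold from -0.02 to -2.17 (adjusted p = 0.00247), RPL43B 3.80-fold (adjusted p = 0.00247), RPL37A 3.57-fold (adjusted p = 0.00247) and RPS21B 3.47-fold (adjusted p = 0.0124). Most of these proteins have a near-identical paralog, and a probe may read both copies.

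**Figure D4:**
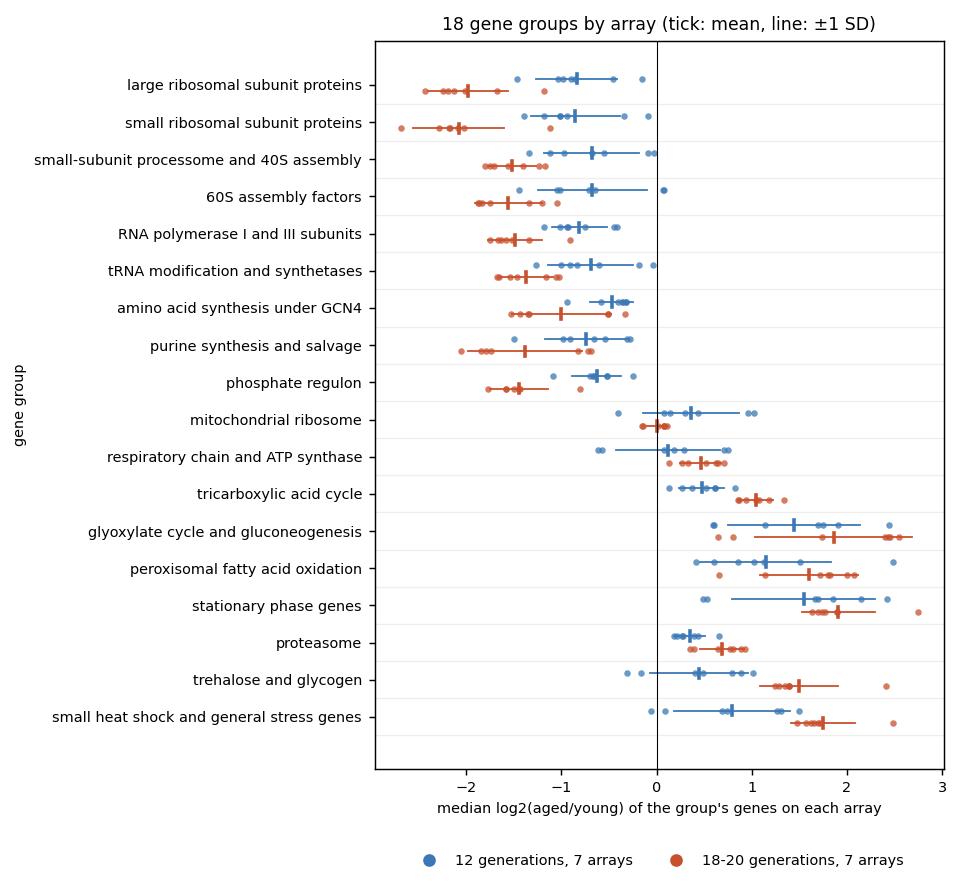
Median log2(aged/young) over the genes of 18 groups on each of the 7 arrays of 12 generations (blue) and 18-20 generations (red), with ticks at the means and lines of 1 SD to each side. Groups of ribosome production lie left of 0 and further left at 18-20 generations, trehalose, glycogen and stress groups lie to the right, and the mitochondrial ribosome narrows toward 0.

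The machinery that builds ribosomes fell with them. Of 50 genes of the small-subunit processome and 40S assembly, which processes the ribosomal RNA precursor, 20 fell (39 lower and none higher unadjusted), with medians of -0.67 and -1.52. Of 58 assembly factors of the 60S subunit, 20 fell (34.5%, with 38 lower and none higher unadjusted), with medians of -0.62 and -1.56. In each of the 2 groups 7 fell without arrays 2 and 3 of 12 generations, while 1 of the first and 0 of the second (12 lower unadjusted) did in limma without arrays 1 to 4 of 18-20, and 2 and 1 with scaled arrays. NMD3, the export adaptor of the 60S subunit, read from -2.44 to 0.17 (median -0.34) at 12 generations and from -2.55 to -2.19 (median -2.45) at 18-20. Array 1 of 12 generations lay within the later range and the other 6 at -1.02 or higher, and NMD3 deepened 3.43-fold (difference -1.78 ± 0.323 SE, adjusted p = 0.00563). EFG1, a factor of early pre-rRNA processing, deepened 3.50-fold without overlap (adjusted p = 0.00375), and NIP7, another 60S factor, 3.18-fold (adjusted p = 0.00702). In the small-subunit group, IMP4, of the U3 snoRNP, and DHR2, a helicase, each fell 3.04-fold (adjusted p = 0.0112 and 0.0174), NOP58, a core protein of the box C/D snoRNPs, 2.96-fold (adjusted p = 0.00632) and KRE33, an acetyltransferase of rRNA, 2.59-fold (adjusted p = 0.0178). NOP58 was at 0.04 at 12 generations and -1.53 at 18-20.

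Falls also lay in transcription and translation around the ribosome, in smaller shares. Of 24 subunits of RNA polymerases I and III, which make ribosomal and transfer RNA, 7 fell (29.2%, against 5.58% of all genes). Unadjusted, 14 were lower and none higher. At 12 generations 20 were already below young cells (background 18.1%). RPA135, the second largest polymerase I subunit, deepened 2.45-fold without overlap (adjusted p = 0.0148). RPB5 and RPB10, subunits shared with RNA polymerase II, fell 2.21-fold (adjusted p = 0.0182) and 2.06-fold (adjusted p = 0.0202). Of 34 genes of tRNA modification and aminoacyl-tRNA synthesis, 8 fell (23.5%, against 5.58% of all genes, with 21 lower and none higher unadjusted). All 34 were below young cells at 18-20 generations (background 28.5%). Without arrays 2 and 3 of 12 generations 2 polymerase and 4 tRNA genes fell, and without arrays 1 to 4 of 18-20, as with scaled arrays, 0 and 1 did in limma (7 and 6 polymerase genes lower unadjusted). TRM11, a tRNA methyltransferase subunit, read from -2.23 to 0.60 (median -0.47) at 12 generations and from -3.26 to -2.35 (median -3.11) at 18-20, without overlap. It fell 5.23-fold (difference -2.39 ± 0.353 SE, adjusted p = 0.00247), the largest fall by the same rule. TRM8, a subunit of a further tRNA methyltransferase, fell 3.05-fold without overlap (adjusted p = 0.00375), TRM3, another methyltransferase, 2.67-fold (adjusted p = 0.0137) and VAS1, valyl-tRNA synthetase, 2.41-fold (adjusted p = 0.0139). Of 8 elongation factor genes, 2 fell (25.0%, against 5.58% of all genes). They were EFB1 and TEF4, both of the exchange factor complex (3.34-fold, adjusted p = 0.00301, and 2.07-fold, adjusted p = 0.016). Of 24 genes listed as initiation factors, 2 fell (8.33%, near the 5.58% of all genes). They were TIF11 (2.17-fold, adjusted p = 0.0193) and GCD10 (1.52-fold, adjusted p = 0.0491). GCD10 encodes a tRNA methyltransferase subunit and not an initiation factor. Without arrays 2 and 3 of 12 generations 0 of the 24 passed in limma (5 lower and 1 higher unadjusted) and the median difference went from -0.338 to -0.105.

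Falls in biosynthesis depended on which arrays of 18-20 generations were used. Of 60 amino acid synthesis genes under the activator GCN4, 12 fell (20.0%, against 5.58% of all genes, with 25 lower and 1 higher unadjusted). The group medians were -0.43 and -0.93. ARO4, an entry enzyme of aromatic amino acid synthesis, fell 3.43-fold from -0.01 to -1.79 (adjusted p = 0.0196). GDH1, which fixes ammonium into glutamate, fell 3.04-fold (adjusted p = 0.00869), and HIS1, the entry enzyme of histidine synthesis, 3.04-fold (adjusted p = 0.00732). The 18-20-generation arrays split here too, with a median difference of -0.82 against arrays 1 to 4 (26 fell and 1 rose) and -0.16 against arrays 5 to 7 (1 fell and 5 rose). Without arrays 2 and 3 of 12 generations 6 fell, and 0 did in limma with scaled arrays (16 lower and 3 higher unadjusted). Of 23 genes of purine synthesis and salvage, 4 fell and 1 rose (17.4% and 4.35%, against 5.58% and 3.31% of all genes). The rise was ADE16 (from -0.43 to 0.40, named after its values were seen). The 4 falls were salvage genes, AAH1, adenine deaminase (2.94-fold, adjusted p = 0.0131), APT1 (2.38-fold, adjusted p = 0.03) and HPT1 (1.99-fold, adjusted p = 0.0279), both phosphoribosyltransferases, and ADO1, adenosine kinase (1.83-fold, adjusted p = 0.0172). The group median differed by -0.60, and by -0.0018 with 1 fall against arrays 5 to 7. The falls also numbered 1 without arrays 2 and 3 of 12 generations, and 0 in limma with scaled arrays (3 lower unadjusted).

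Single genes of phosphate, sulfur and membrane metabolism fell too, in shares of 15% for phosphate, 10.3% for sulfur, 8.00% for ergosterol and 8.70% for lipid synthesis, against 5.58% of all genes. With scaled arrays 0 phosphate, sulfur or lipid genes fell in limma (4, 2 and 2 lower unadjusted). Of 20 phosphate regulon genes, 3 fell (11 lower and none higher unadjusted), with medians of -0.58 and -1.38. SPL2, a regulator of low-affinity phosphate uptake, fell 3.51-fold from -0.33 to -2.14 (adjusted p = 0.00855). Both probes for VTC4, the polyphosphate polymerase, fell, the one listed as YJL012C-A 2.51-fold without overlap (adjusted p = 0.00247) and the one listed as YJL012C 1.89-fold (adjusted p = 0.0104). SAM1 and SAM2, isoforms of S-adenosylmethionine synthetase, fell 2.88-fold (adjusted p = 0.00563) and 2.32-fold (adjusted p = 0.021), and CYS3, cystathionine gamma-lyase, 1.60-fold (adjusted p = 0.048), the 3 falls of 29 sulfur genes. Against arrays 5 to 7 of 18-20 generations alone 1 sulfur gene rose and 0 fell in limma (3 higher and 2 lower unadjusted), and the median difference turned from -0.22 to 0.148. Of 25 ergosterol genes, ERG2, a sterol isomerase, fell 3.40-fold (adjusted p = 0.021) and ERG3, a sterol desaturase, 1.68-fold (adjusted p = 0.0152). ERG2 stood at -5.06 on array 7 of 18-20 generations and at -2.67 or higher on the others. The ergosterol group turned as well, from a median difference of -0.194 to 0.325 against arrays 5 to 7 alone, with 4 rises and 1 fall. Of 23 lipid synthesis genes, URA7, a CTP synthase, fell 2.25-fold (adjusted p = 0.00735) and ELO3, a fatty acid elongase, 1.83-fold (adjusted p = 0.00877), both without overlap. In the pentose phosphate group of 18, the pathway enzymes RKI1 (2.97-fold, adjusted p = 0.0118), TAL1 (2.92-fold, adjusted p = 0.00652) and GND1 (1.76-fold, adjusted p = 0.0492) fell, while SOL4, a phosphogluconolactonase, rose 2.77-fold (adjusted p = 0.021). The falls were 16.7% and the rise 5.56% of this group, against 5.58% and 3.31% of all genes.

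**Figure D5:**
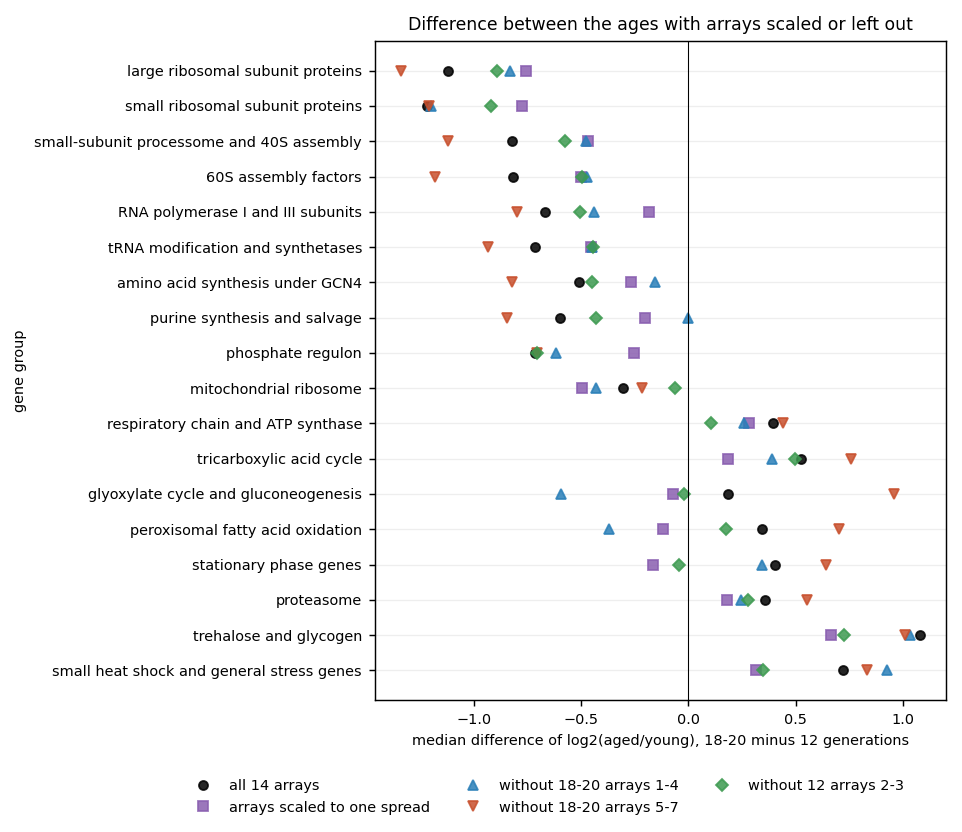
Median difference of log2(aged/young), 18-20 minus 12 generations, over the genes of 18 groups with all 14 arrays (black), with arrays scaled to one spread (purple) and with stated arrays left out. Groups of ribosome production stay left of 0 and trehalose, glycogen, stress, proteasome and respiration groups right of 0 in each, while glyoxylate, peroxisomal and stationary phase groups cross 0.

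Mitochondrial ribosomal protein genes were nearer to young cells at 18-20 generations than at 12 in their median. Of 72 mitochondrial ribosomal protein genes, 29 were above young cells and 0 below at 12 generations, and 17 above and 9 below at 18-20. Of all genes, 19.8% were above and 18.1% below at 12 generations, and 30.6% above and 28.5% below at 18-20. The median log2(aged/young) was 0.30 at 12 generations and 0.03 at 18-20. Between the ages 4 fell (5.56%, the share of all genes being 5.58%, with 13 lower and 1 higher unadjusted), so the calls do not set the group apart, and 60 of the 72 had a difference below 0. RSM26, RSM22 and RSM27 encode small-subunit proteins and MRPL27 a large-subunit protein. RSM26 fell 2.36-fold from 0.03 to -1.21 (adjusted p = 0.0329), MRPL27 1.94-fold from 0.57 to -0.39 (adjusted p = 0.0296), RSM22 1.92-fold from 0.45 to -0.49 (adjusted p = 0.0251) and RSM27 1.67-fold from 0.22 to -0.51 (adjusted p = 0.0419). Arrays 2 and 3 of 12 generations set much of this, since the group median was 0.12 at 12 generations and the difference -0.06 with 0 falls in limma (7 lower and 5 higher unadjusted) without them. The difference was -0.50 with scaled arrays. Of 26 genes of mitochondrial import and prohibitins, 5 fell (19.2%, against 5.58% of all genes, with 10 lower and none higher unadjusted). Among them were MGE1, a co-chaperone of the import motor (2.37-fold, adjusted p = 0.0178), PAM18, another motor subunit (1.75-fold, adjusted p = 0.0338), TOM6, of the outer membrane translocase (1.74-fold, adjusted p = 0.0338), and TIM17, of the inner membrane translocase (1.54-fold, adjusted p = 0.0216). Without arrays 2 and 3 of 12 generations 0 of the 26 fell in limma (6 lower unadjusted), and without arrays 1 to 4 of 18-20 generations 1 did.

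The 32 genes that turned back ended in 3 ways. At 18-20 generations 2 still differed from young cells with the sign of 12 generations, 19 no longer passed, and 11 passed with the opposite sign. BTN2, a stress-induced protein that sequesters misfolded proteins, was of the first kind. It read from 1.29 to 3.89 (median 2.92) at 12 generations and from -0.02 to 1.61 (median 1.36) at 18-20, with arrays 4 to 7 of 12 generations at 2.92 and above, and fell 3.00-fold between the ages (difference -1.59 ± 0.421 SE, adjusted p = 0.0296). It remained above young cells (1.02). YPS3, a cell surface protease, was the other (1.59 and 0.75, named after its values were seen). PIN2, a prion-inducing membrane protein, went from 1.03 to 0.00 (2.03-fold, adjusted p = 0.016).

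Sign changes ran in both directions. LOC1, a nucleolar factor of 60S assembly and of mRNA localisation, read from -0.84 to 0.94 (median 0.78) at 12 generations and from -1.50 to -0.64 (median -1.28) at 18-20. Array 1 was the one array of 12 generations below 0, and LOC1 fell 3.23-fold (difference -1.69 ± 0.258 SE, adjusted p = 0.00275). KIN28, the cyclin-dependent kinase of transcription factor TFIIH, went from 0.37 to -0.31 (1.60-fold, adjusted p = 0.0216). YGP1, a secreted glycoprotein induced as nutrients run out, read from -1.50 to -0.19 (median -1.19) at 12 generations and from -0.38 to 1.95 (median 0.62) at 18-20. All 7 arrays of 12 generations were below young cells, arrays 1 and 2 of 18-20 generations were too, and arrays 5 to 7 read 1.39 and above, for a rise of 3.37-fold (difference 1.75 ± 0.351 SE, adjusted p = 0.00856). NNR1 read from -1.0 to 0.53 (median -0.39) and from 0.63 to 1.44 (median 1.15), without overlap, and rose 2.69-fold (adjusted p = 0.00247). NNR1 and NNR2 encode enzymes that repair damaged NADH and NADPH, the first an epimerase and the second a dehydratase, and NNR2 deepened 2.71-fold from 0.85 to 2.29 (adjusted p = 0.0102). PRY1, a secreted sterol-binding protein, rose 2.60-fold from -0.69 to 0.69 (adjusted p = 0.00877), and RAD52, the central recombination protein, 2.12-fold from -0.51 to 0.57 (adjusted p = 0.02).

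Among other large rises, ARO10, a decarboxylase of amino acid breakdown, read from -1.69 to 0.40 (median -0.24) at 12 generations and from 0.47 to 1.49 (median 1.09) at 18-20, without overlap, and rose 2.88-fold (adjusted p = 0.00822). Rises that deepened included XKS1, xylulokinase (from 0.71 to 2.13, 2.67-fold, adjusted p = 0.00856), EMI2, a hexokinase-related protein (from 0.57 to 1.97, 2.63-fold, adjusted p = 0.0112), and SSE2, a stress-induced exchange factor of Hsp70 (from 0.84 to 2.20, 2.56-fold, adjusted p = 0.0204). SSB2, a ribosome-associated Hsp70, fell 2.52-fold (adjusted p = 0.00878). The 23 cytosolic chaperone genes held 1 rise and 2 falls (4.35% and 8.70%, against 3.31% and 5.58% of all genes). YOL014W, of unknown function, fell 3.65-fold (adjusted p = 0.0201), with a difference of -0.935 against arrays 1 to 4 and -3.09 against arrays 5 to 7.

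Level genes were selected for a small difference between the ages, so the following are examples of that pattern. DAL4, the allantoin permease, read from 1.28 to 1.95 (median 1.70) at 12 generations and from 1.48 to 2.19 (median 1.69) at 18-20, a difference of 0.13 with a standard error of 0.17. IZH1, a membrane protein of zinc homeostasis, read from -2.34 to -1.47 (median -1.66) and from -2.54 to -1.70 (median -1.79), a difference of -0.07 with a standard error of 0.19. Other level rises were MRPL28 (1.38 and 1.45) and MRPS16 (1.22 and 1.15), both of the mitochondrial ribosome, and YGL081W (1.24 and 1.28). Other level falls were URA5, of pyrimidine synthesis (-1.13 and -1.10), SEC59, dolichol kinase (-1.02 and -1.06), and TAT2, a tryptophan permease (-0.98 and -0.87). The level calls depended on the scaling. With scaled arrays the differences of the rises were -0.49 for DAL4, -0.49 for MRPL28, -0.51 for MRPS16 and -0.44 for YGL081W. Those of the falls were 0.60 for IZH1, 0.48 for URA5, 0.40 for SEC59 and 0.47 for TAT2. None of these differences passed in limma.

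Markers of other cells and states bear on the identity of the sorted cells. Most genes made in daughter cells or at cell separation were below young cells at both ages, 8 of 12 at 12 generations (background 18.1%) and 9 at 18-20 (background 28.5%). The others included ASH1 and DSE3, which were above young cells at both (0.96 and 0.65 for ASH1, 0.66 and 0.80 for DSE3, named after their values were seen). Of the 12 tested, 4 fell between the ages (33.3%, against 5.58% of all genes), namely DSE1, DSE2, DSE4 and EGT2. Unadjusted, 6 were lower and none higher, and the medians were -0.49 and -1.19. DSE2 read from -1.82 to -0.74 (median -1.36) at 12 generations and from -2.78 to -1.48 (median -2.19) at 18-20, overlapping through array 5 of 12 generations and array 7 of 18-20, and fell 2.08-fold (adjusted p = 0.00977). The falls numbered 2 without arrays 2 and 3 of 12 generations, 1 without arrays 1 to 4 of 18-20 and 0 with scaled arrays in limma (5 lower unadjusted). With scaled arrays the difference of DSE4 was 0.02 in place of -0.64. CTS1, chitinase, was at 1.39 on array 7 of 18-20 generations and between -1.27 and -0.80 on the other 6, and did not pass (adjusted p = 0.155). It passed in limma in 5 of 32 alternatives, among them the authors' table (-0.989, adjusted p = 0.00725). The part of these genes in the other differences was not tested.

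Of 5 alpha-cell specific genes, 3 fell (the same number unadjusted), with medians of -1.09 and -1.78, and the group medians of single arrays ran from -1.59 to -0.80 at 12 generations and from -1.97 to -1.09 at 18-20. MF(ALPHA)2, an alpha-factor pheromone gene, fell 2.56-fold (from -1.20 to -2.56, adjusted p = 0.00877), STE3, the a-factor receptor of alpha cells, 1.61-fold (from -1.09 to -1.78, adjusted p = 0.0411), and AFB1, the a-factor barrier of alpha cells, 1.72-fold (from 0.24 to -0.54, adjusted p = 0.0394). Of the 5, 1 fell without arrays 2 and 3 of 12 generations, 1 without arrays 1 to 4 of 18-20 and 0 with scaled arrays in limma (2 lower unadjusted). The alpha-cell genes MF(ALPHA)1 and SAG1 differed by -0.14 and -0.12 and did not pass. Of 7 a-cell specific genes 0 passed in limma (2 lower unadjusted), with medians of 0.36 and 0.37. MFA1 and MFA2 differed by -0.62 and -0.59 (adjusted p = 0.0886 and 0.0514), and AGA2, ASG7, BAR1, STE2 and STE6 by -0.05 to 0.32. MFA1 passed in limma with scaled arrays (-0.95, adjusted p = 0.0331) and MFA2 in the authors' table (-0.72, adjusted p = 0.0406). STE3 was above background in both channels on all 7 arrays of each age, and STE2, its a-cell counterpart, in aged cells on 5 arrays of 12 generations and 6 of 18-20. Of 27 meiosis and sporulation genes 0 passed in limma (2 higher unadjusted, medians 0.38 and 0.30), and 11 and then 12 were above young cells. Of all genes, 19.8% were above young cells at 12 generations and 30.6% at 18-20. The part of any of these markers in the differences between the ages was not tested.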

How the data were processed

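Each array was a 2-colour spotted array, and its deposited file holds, per the file headers, the median red and green intensity of each spot and of its local background, the percent of pixels above background, and a score that marks bad spots. These intensities were neither background-corrected nor normalized by the authors. A further deposited table holds the authors' processed log2 ratios. Its 5944 rows were matched by spot position, all 14 columns correlated best with their own array (r = 0.935 to 0.996), column medians ran from -0.0436 to 0.0984 and the slopes against the scanner values from 0.885 to 1.11. Its normalization is not stated, and it served as an alternative. Each array's direction was taken from the dyes in the labels.

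Intensities were corrected with normexp (offset 50) and loess (span 0.3) in limma 3.58.1 (R 4.3.3), turned to log2(aged/young) and averaged over the spots of a probe. Between 174 and 1157 marked spots an array (median 683) were left out. The median intensity per array was 292 to 4484 in red and 463 to 3928 in green. The number of arrays limits the precision, and the median standard error of a difference was 0.237. Genes measured on at least 3 arrays of each age were tested (6019) in a limma fit of the 14 arrays with a mean per age and a term for dye orientation, two-sided, with Benjamini-Hochberg adjustment at 0.05. On simulated data the fit was checked for recovery of known changes and their sign. The simulated noise was independent between arrays, so this check does not bear on related neighbouring arrays.

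Symbols came from RefSeq (assembly R64) through the yeast codes of the arrays, of which 5849 of 6388 matched, and the arrays' own names were kept otherwise. The 311 tested probes of several genes were not named. Named genes had a probe of their own measured on at least 6 arrays of each age. They were the 10 largest rises and 10 largest falls past the threshold, the 4 largest differences in each pattern, the 4 level rises and 4 level falls with the largest change at 12 generations, up to 4 called members of each group, and up to 4 genes each way that were called at both ages with opposite signs. Some genes that this rule names are not reported here. The comparison and the 50 gene lists were chosen with earlier results of these data known, so groups are described by counts and medians beside those of all genes, with no set test. Promoter motifs were not analysed here. Alternatives covered the normalization, background, filters, dye term, blocks, array weights, the arrays fitted and leaving out each array.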

Additional observations from a re-analysis of the deposited data

Results flagged for a closer look

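The difference between the ages was tested directly, and 535 genes passed it in limma. Of the genes called at both ages, 11 had opposite signs.

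Single arrays stood apart from the other 6 of their age, by Dixon's criterion at the 95% level, in 39 of 416 sets of 7 values of named genes, markers and gene groups (9.38%, where chance flags about 5%). Most fell on array 7 of 18-20 generations or array 1 of 12 generations. All values are log2(aged/young).

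On array 7 of 18-20 generations, reserve and stress genes read higher than on any other array of that age. DCS2 stood at 3.87 with the nearest array at 1.94, HXK1 at 4.18 (nearest 2.95), SOL4 at 3.38 (1.82), SSE2 at 3.11 (2.26) and YAP1 at 2.27 (1.45). The medians of the trehalose and glycogen group (2.41, nearest 1.39), the general stress group (2.49, nearest 1.72) and the stationary phase group (2.74, nearest 1.90) stood apart there too. The small ribosomal subunit was less depressed on that array, at -1.12 with the nearest at -2.03, although RPS31 was lower (-3.73, nearest -1.88). VMA5, a subunit of the vacuolar ATPase, read -0.538 (nearest -1.36) and GAS1, a glucanosyltransferase of the cell wall, -0.51 (nearest -1.81), both less depressed. ERG2 was lowest at -5.06 (nearest -2.67), RSM27 at -1.06 (nearest -0.484) and DSE4 at -3.06 (nearest -2.22), while CTS1 was highest at 1.39 (nearest -0.798).

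Array 1 of 12 generations stood below the other arrays of its age in 7 genes and above them in 5. RPS29B read -1.48 (nearest 0.000736), LOC1 -0.844 (0.431), RSM22 -0.852 (0.203), RSM27 -0.761 (0.0425), TIM17 -0.394 (0.0153), VMA10 -1.01 (-0.309) and STE3 -2.05 (-1.26). On the same array NNR1 read 0.527 (nearest -0.344), PRY1 0.519 (-0.541), the kinase gene MKK1 0.937 (-0.0366), and the sporulation genes DIT1 3.13 (1.93) and SGA1 2.30 (0.684). Group medians there were -0.937 for amino acid synthesis (nearest -0.582), -1.33 for ergosterol (-0.621), -0.853 for lipid synthesis (-0.446) and 0.66 for histones (0.303).

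The rest lay on 3 arrays. On array 5 of 18-20 generations RPB10 read -0.521 (nearest -1.69), NUP145 -0.807 (-1.56) and NUP100 -1.22 (-0.759), with group medians of 0.886 for glycolysis (0.108) and -0.807 for the phosphate regulon (-1.44). On array 6 of 18-20 generations the histone median was -0.601 (nearest 0.00105), and on array 3 of 12 generations ASH1, a daughter-cell repressor, read 1.87 (nearest 0.88).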

How the results depend on the processing

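The count of differences between the ages depended on the scaling of arrays, on array weights and on whether neighbouring arrays were taken as independent. It was 535, 600 without background correction, 595 with print-tip loess, 494 with an offset of 16, 557 with marked spots kept, 606 without the dye term, 593 of 5118 with probes above background only and 432 in the authors' table (171 higher, 261 lower). Of the 535 genes, all that were measured kept their sign in these settings, except 1 of 530 in the authors' table. Signal limits dim probes, and 61.28% to 94.15% of red and 82.84% to 93.27% of green signals were above background. Counts are given next as total, higher, lower, then deepened rises and falls, late rises and falls, level rises and falls, and turned-back rises and falls, for the settings that moved them by over 1.5 times. Median centring gave 330 in all, 191 lower, 36 and 107 deepened, 80 late falls, 33 and 49 level, and 4 turned-back rises. Scaled arrays gave 43, 15 and 28, 1 and 5 deepened, 7 and 15 late, 8 and 7 turned back. The fit on all 27 arrays gave 1156, 498 and 658, 188 and 352 deepened, 254 and 245 late, 161 level falls, 57 and 52 turned back. Array weights gave 1969, 899 and 1070, 316 and 452, 482 and 457, 237 and 194, 150 and 93. Leaving out arrays 1 to 4 of 18-20 generations gave 207, 113 and 94, 21 and 39, 69 and 41, 3 and 9 level. Leaving out arrays 5 to 7 gave 1158, 471 and 687, 192 and 348, 233 and 272, 62 and 56, 65 and 39. Leaving out arrays 2 and 3 of 12 generations, chosen after seeing the data, gave 229, 64 and 165, 18 and 91, 39 and 43, 31 and 7 turned back. With alike arrays averaged the counts were 0 in limma (977 unadjusted, lowest adjusted p = 0.0763) with 1 level rise and 1 level fall. With neighbours averaged, also chosen after seeing the data, they were 0 (676 unadjusted) with 2 level rises and 2 level falls. With neighbours as a random block they were 1 in all, a late rise, with 0 falls (790 unadjusted) and 2 level rises and 0 level falls. The authors' table gave 56 level falls, and a test against a difference of 0.5 left 10 genes. Leaving out 1 array gave 302 to 1072 genes, 102 to 458 higher and 197 to 614 lower, with 31 to 99 and 111 to 232 deepened, 61 to 300 and 72 to 309 late, 61 to 135 and 51 to 106 level, and 3 to 63 and 6 to 54 turned back. The replicate block gave 248 genes, 69 and 179, with 17 and 96 deepened, 49 and 78 late, 27 and 24 level, and 5 and 3 turned back. Same-numbered arrays of the ages did not deviate together (r from -0.279 to 0.222 over 7 pairs, and 0 arrays correlated best with their own number), so the numbers were not taken as a pairing. The cause of these movements was not tested.

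Median differences of groups that moved by more than the spread between arrays were as follows. With scaled arrays they were -0.1848 for RNA polymerases I and III, 0.1846 for the tricarboxylic acid cycle, -0.0295 for pentose phosphate, 0.003115 for sulfur, 0.02839 for the vacuolar ATPase, -0.2541 for phosphate, 0.05001 for cyclins, 0.1284 for the nuclear pore, -0.2139 for alpha-cell genes and -0.07875 for folding in the endoplasmic reticulum. Without arrays 1 to 4 of 18-20 generations they were -0.5955 for glyoxylate, -0.3716 for peroxisomal, 0.8502 for lactate, -0.3617 for hexose uptake, -0.1431 for oxidative, 0.1476 for sulfur, -0.001807 for purine, 0.325 for ergosterol, 0.2566 for retrograde, -0.5704 for histone, 0.05267 for cyclin, -0.09451 for DNA replication and -0.7601 for daughter genes. Without arrays 5 to 7 they were -1.013 for elongation, 0.7559 for the tricarboxylic acid cycle, 0.9564 for glyoxylate, 0.3558 for hexose uptake, -0.6102 for glycolysis, -0.689 for ergosterol, -0.02422 for histones, -0.06495 for silencing, -0.2521 for cell wall, -0.9739 for alpha-cell and -0.1099 for folding genes. With alike arrays averaged, lactate was at 0.6014, pentose phosphate at -0.1339 and cyclins at 0.07736. Silencing was at -0.07374 with array weights, a-cell genes at -0.3173 with probes above background, and nitrogen at -0.3334 without arrays 2 and 3 of 12 generations. DSE4 turned from -0.64 to 0.01781 with scaled arrays (adjusted p = 0.97).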

Other observations

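Several groups outside those described above held a few late changes. Of 16 genes of the vacuolar ATPase, which acidifies the vacuole, 3 fell between the ages and 0 rose in limma (5 lower and 0 higher at an unadjusted p under 0.05). The falls were 18.75% of the group, against 5.58% of all genes. With scaled arrays 0 passed in limma (3 lower and 2 higher unadjusted). VMA10 fell 1.85-fold, from -0.32 to -1.21 on the log2(aged/young) scale (adjusted p = 0.00735), VMA5 1.93-fold (adjusted p = 0.0468) and VMA8 1.74-fold (adjusted p = 0.0475). All 3 overlapped between the ages. Of 30 nuclear pore genes, 3 fell (10%, against 5.58% of all genes) and 0 rose in limma (6 lower and 3 higher unadjusted). Their median difference was -0.08, and 0.128 with scaled arrays. In limma 0 passed with scaled arrays (5 lower and 2 higher unadjusted) and 0 without arrays 2 and 3 of 12 generations (4 lower and 2 higher unadjusted). NUP145 fell 1.98-fold (adjusted p = 0.0168), NUP192 1.77-fold (adjusted p = 0.0345) and NUP100 1.61-fold without overlap (adjusted p = 0.0407). In the folding group of the endoplasmic reticulum, 2 of 27 genes fell (7.41%, near the 5.58% of all genes). In limma 0 rose (4 lower and 0 higher unadjusted). SEC63, of the translocation channel, fell 1.94-fold (adjusted p = 0.0134) and ERO1, the thiol oxidase, 1.83-fold (adjusted p = 0.0183). Neither passed in limma with scaled arrays (adjusted p = 0.171 and 0.0843).

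Few genes of the cell surface passed, and they moved both ways. Of 25 cell wall and chitin genes, 1 rose and 2 fell (4.00% and 8.00%, near the 3.31% and 5.58% of all genes). Of 21 hypoxic and cell wall mannoprotein genes, 2 rose (9.52%) and 0 fell in limma (3 higher and 3 lower unadjusted). GAS1, which remodels glucan of the wall, fell 2.40-fold from -0.60 to -1.87 (adjusted p = 0.00856), and CIS3, a wall mannoprotein, fell 2.28-fold from 0.42 to -0.76 (adjusted p = 0.0425). MKK1, a kinase of the cell wall integrity pathway, rose 1.75-fold (adjusted p = 0.0347). DAN4 and PAU23, mannoproteins of families repressed by oxygen, rose 1.71-fold (adjusted p = 0.0279) and 1.83-fold (adjusted p = 0.0492). With 1 array left out, PAU23 passed in 3 of 14 fits, CIS3 in 5, MKK1 in 6, DAN4 in 10 and GAS1 in 14.

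Catalytic subunits of protein kinase A, which relays glucose signals, changed in opposite directions. TPK2 rose 1.83-fold from 0.16 to 1.03 (adjusted p = 0.0252) and TPK3 fell 1.81-fold from -0.02 to -0.87 (adjusted p = 0.0178). Of 27 nutrient signalling genes, 1 rose and 1 fell (3.70% each, against 3.31% and 5.58% of all genes). ATX1, a copper chaperone, fell 2.02-fold (adjusted p = 0.0152) and POL30, the sliding clamp of DNA replication, 1.85-fold (adjusted p = 0.0231). Each was the 1 fall of its group, of 26 iron regulon and of 33 DNA replication genes (3.85% and 3.03%, against 5.58% of all genes). In limma 0 of 9 histone genes passed (3 lower and 0 higher unadjusted), 0 of 19 cyclin genes (1 lower and 3 higher), 0 of 13 silencing genes (2 lower and 1 higher), 0 of 24 nitrogen genes (1 lower and 3 higher), 0 of 12 haploid-specific genes (3 lower and 0 higher) and 0 of 6 lactate genes (0 lower and 2 higher).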
